A study of Mus musculus with 14 samples.

Results

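Membrane transporters that carry drugs, conjugates, organic ions, carnitine and lipids were described in mouse duodenal tumors, in the duodenum beside them and in wildtype duodenum. The members were every gene whose single array symbol began with Abca, Abcb, Abcc, Abcd, Abcg, Slc13a, Slc22a or Slco and a number. Abca1, Abcg5, Abcg8 and Slco2a1 were left out by that rule. This gave 83 of the 19938 genes with a single symbol, and the transcript cluster with the highest mean signal stood for a gene that had several, as 1 of the 83 did.

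The 14 arrays, of the type Affymetrix Mouse Gene 1.0 ST, read total RNA of 9 mice of mixed 129S7/SvEv and C57/BL6 background. The tumor group held 6 duodenal tumors and the adjacent group held normal duodenum from 5 of the same mice, all of genotype Lrig1-CreERT2/CreERT2 (Lrig1-/-), in which CreERT2 is inserted at both copies of Lrig1. The wildtype group held duodenum from 3 age-matched mice without the insertion, and no age in weeks is given in the sources used here. All values are deposited log2 signals, so a difference of 1 is a 2-fold difference, and signals of different genes cannot be set against each other because each has its own probes.

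ATP-binding cassette (ABC) transporters use ATP to push substrates across a membrane, and those of the enterocyte brush border return drugs and conjugates to the gut lumen. Carriers of the Slc13 and Slc22 families take up organic anions, cations and carnitine, several of them with sodium, and the Slco carriers exchange large organic anions such as bile salts and hormone conjugates. In the small intestine the pumps and carriers of the brush border are features of the mature absorptive cell, and nuclear receptors that sense drugs and bile acids are known to switch many of them on.

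Lrig1, the gene carrying the insertion, had a mean of 8.07 ± 0.32 in tumors (SD, n = 6), 7.20 ± 0.17 in adjacent tissue (n = 5) and 9.03 ± 0.71 in wildtype tissue (n = 3). Where its probes lie relative to the insertion is not known here. The 9 enterocyte markers averaged 10.9 to 11.5 in tumors, 13.1 to 13.8 in adjacent tissue and 12.5 to 13.7 in wildtype tissue, and 8 of the 9 were lower in tumors than in adjacent tissue. The 6 gastric pit cell markers averaged 12.3 to 13.8 in tumors and 6.11 to 8.19 in adjacent tissue, all 6 being higher in tumors. Wildtype arrays 2 and 3 had 6.73 and 7.17 for that list, but wildtype array 1 had 13.4. Pancreatic acinar markers, of which 10 of 11 were in the table, averaged 7.12 to 10.003 in tumors, 7.27 to 14.19 in adjacent tissue and 7.46 to 14.03 in wildtype tissue. Above 12 for that list were adjacent arrays 1 and 2 and wildtype arrays 1 and 3. The tissue is labelled as epithelium, yet the 5 smooth muscle markers averaged 8.71 to 11.998 in tumors, 10.14 to 11.47 in adjacent tissue and 10.92 to 12.01 in wildtype tissue, with 0 of 5 called between tumors and adjacent tissue. The 6 fibroblast markers averaged 8.92 to 9.69 in tumors, 8.31 to 8.80 in adjacent tissue and 8.37 to 8.84 in wildtype tissue, and 5 of 6 were higher in tumors than in adjacent tissue. The 5 macrophage markers averaged 7.95 to 8.36 in tumors, 8.35 to 8.98 in adjacent tissue and 8.10 to 8.42 in wildtype tissue, and 3 of 5 were lower in tumors than in adjacent tissue. In such bulk tissue, fewer cells of a type and less RNA per cell cannot be told apart, and the part of these cell types in the results below was not tested.

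**Figure D1:**
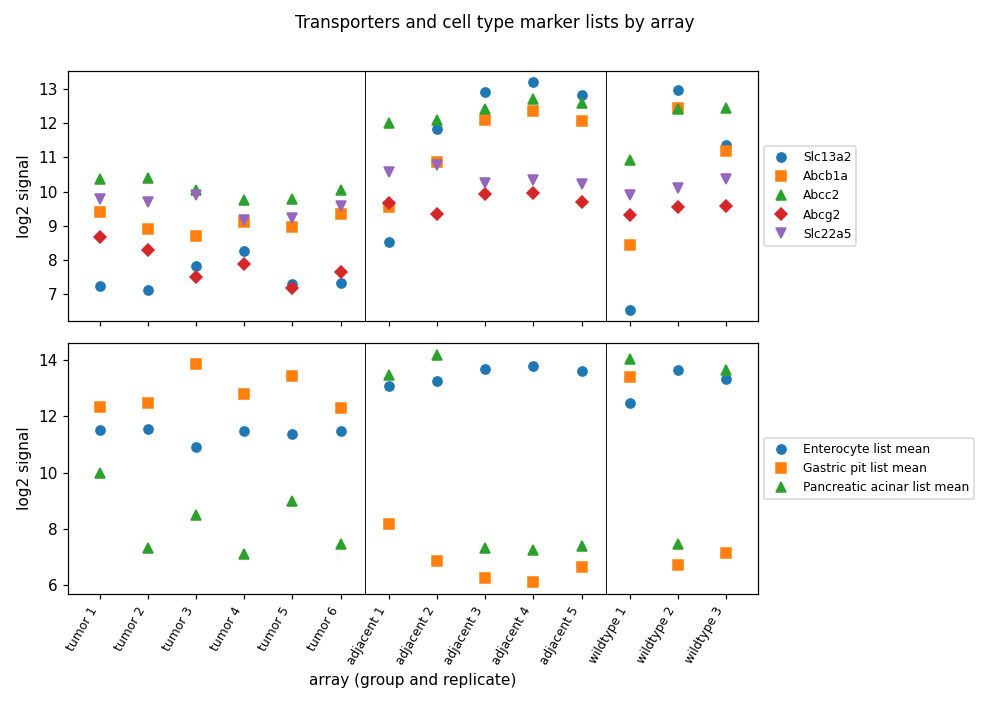
Log2 signal of 5 transporters (upper panel) and the mean log2 signal of the enterocyte, gastric pit and pancreatic acinar marker lists (lower panel) on each array, with tumor, adjacent and wildtype arrays from left to right. Slc13a2 and Abcb1a are low in all tumors and also on adjacent array 1 and wildtype array 1, where Slc13a2 reads 8.52 and 6.54, whereas Abcg2 stays at 9.32 or above on every adjacent and wildtype array.

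The first comparison asked how tumors differed from the duodenum beside them. Of the 4 drug efflux pumps of the brush border, Abcb1a, Abcc2 and Abcg2 were lower in tumors, as were the citrate carrier Slc13a2, the ergothioneine carrier Slc22a4 and the carnitine carriers Slc22a5 and Slc22a21, whereas Abcc1, Abcc3, Abcc4 and Abcc5, exporters of conjugates and signalling molecules, were higher. By limma with Benjamini-Hochberg adjustment over all genes, 24 of 83 members passed an adjusted p of 0.05, which is 28.9% against 31.7% of all genes, so the family as a whole did not stand above the background. Higher in tumors were 9 members (10.8%, against 19.1% of all genes) and lower were 15 (18.1%, against 12.6%). These shares of all genes are also the background for the counts by role below. Among calls of at least 2-fold, 1 member was higher (3.3% of all genes) and 5 were lower (3.07% of all genes). The median log2 difference was 0.018 over the members and 0.043 over all genes. Of the 31 members whose mean signal reached the median of all genes, 8 were higher and 11 lower, whereas among the 52 dimmer members 1 was higher and 4 were lower. Bright genes were called more often in general. A fit of only the 9969 genes at or above that median called 51.5% of them and 61.3% of the 31 members. The 59 members that missed the threshold had log2 differences between -0.30 and 0.41.

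**Figure D2:**
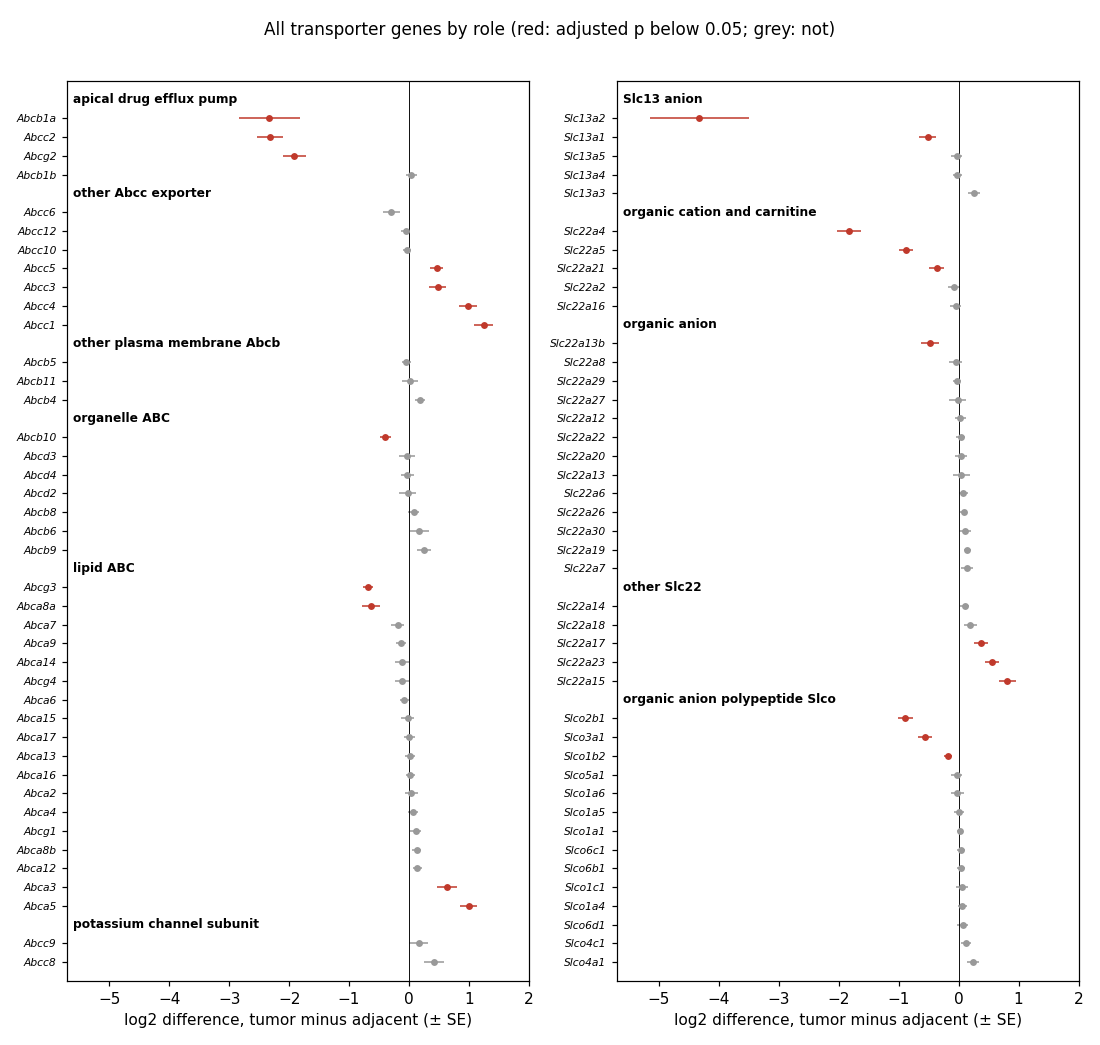
Log2 difference, tumor minus adjacent, of all 83 transporter genes grouped by role, with bars of 1 SE; red points have an adjusted p below 0.05 and grey points do not. Slc13a2, Abcb1a, Abcc2, Abcg2 and Slc22a4 lie furthest to the left of 0, Abcb1b lies at 0.04, and the other Abcc exporters reach 1.25 to the right with Abcc1.

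Slc13a2 takes up citrate, succinate and related acids with sodium across the brush border of gut and kidney. Its signal in tumors was 7.12 at the lowest, 7.31 at the median and 8.25 at the highest. Adjacent arrays 1 to 5 read 8.52, 11.82, 12.91, 13.20 and 12.81. The tumors lay close together and below all adjacent arrays, among which array 1 was far below the other 4. The fitted difference was -4.33 ± 0.83 (SE; 20.1-fold lower in tumors; adjusted p = 0.000941), and tumor was higher in 0 of 5 mice with both tissues. Mouse by mouse the difference ran from -5.91 to -1.40. Of the 5 Slc13 genes 2 fell and none rose. The other that fell was Slc13a1, the brush-border sodium sulfate carrier, with 12.21, 12.46 and 12.95 as the lowest, median and highest tumor and 13.27, 13.31, 12.64, 13.01 and 12.83 in adjacent tissue. The groups overlapped, and the difference was -0.52 ± 0.14 (adjusted p = 0.00991). The Slc13a1 call was lost in 4 of 28 alternative fits, among them the fit without the adjacent and wildtype arrays with high acinar markers, at -0.36 ± 0.13 (adjusted p = 0.0706).

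The 250 bases upstream of the Slc13a2 start are shown because it had the largest difference among the members. They are RefSeq sequence of build GRCm38.p6, chr11:78422235-78422484, minus strand, printed 5′ to 3′.
Slc13a2: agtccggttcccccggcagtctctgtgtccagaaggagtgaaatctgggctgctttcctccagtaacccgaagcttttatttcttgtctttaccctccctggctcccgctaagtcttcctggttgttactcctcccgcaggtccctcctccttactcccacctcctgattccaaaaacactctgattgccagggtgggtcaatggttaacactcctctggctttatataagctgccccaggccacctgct

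The apical efflux pumps comprise the P-glycoproteins Abcb1a and Abcb1b, which expel many lipophilic drugs, Abcc2 (Mrp2), which expels glutathione and glucuronide conjugates, and Abcg2 (Bcrp), which expels drugs and sulfate conjugates. Of these 4 genes 3 fell and none rose, and the median difference was -2.12.

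Abcc2 read 9.74, 10.04 and 10.38 in the lowest, median and highest tumor. Adjacent arrays 1 to 5 read 11.9998, 12.09, 12.41, 12.71 and 12.59. Every tumor was therefore well below every adjacent array, and both groups were tight. The difference was -2.32 ± 0.21 (5.004-fold lower in tumors; adjusted p = 2.82e-06), lower in all 5 mice.

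Abcg2 read 7.18, 7.76 and 8.67 in tumors against 9.67, 9.34, 9.93, 9.94 and 9.70 in adjacent tissue. The groups did not overlap, although the tumors were spread more widely than the adjacent arrays. The difference was -1.91 ± 0.19 (3.77-fold lower; adjusted p = 4.35e-06).

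Abcb1a read 8.70, 9.04 and 9.39 in tumors against 9.55, 10.86, 12.08, 12.35 and 12.06 in adjacent tissue. The order of the adjacent arrays was like that of Slc13a2, with array 1 lowest and only just above the highest tumor. The difference was -2.33 ± 0.51 (5.03-fold lower; adjusted p = 0.0024). Its neighbour and close paralog Abcb1b read 6.15, 6.31 and 6.61 in tumors against 6.17, 6.35, 6.26, 6.21 and 6.44 in adjacent tissue. Abcb1b was dim, at 6.73 on its highest array against a median of 7.69 over the mean signals of all genes, so a fall may not show. For Abcb1b the difference was 0.04 ± 0.09, with a 95% interval of -0.16 to 0.24 and an adjusted p of 0.832. Abcb4, which moves phosphatidylcholine into bile and follows them on chromosome 5, differed by 0.18 ± 0.08 (adjusted p = 0.139). Mouse by mouse, Abcb1a differed by -0.64, -2.16, -2.96, -3.39 and -2.71 and Abcb1b by 0.17, -0.21, 0.02, 0.06 and -0.03. How well the probes separate the near-identical Abcb1a and Abcb1b is not given in the sources used here.

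**Figure D3:**
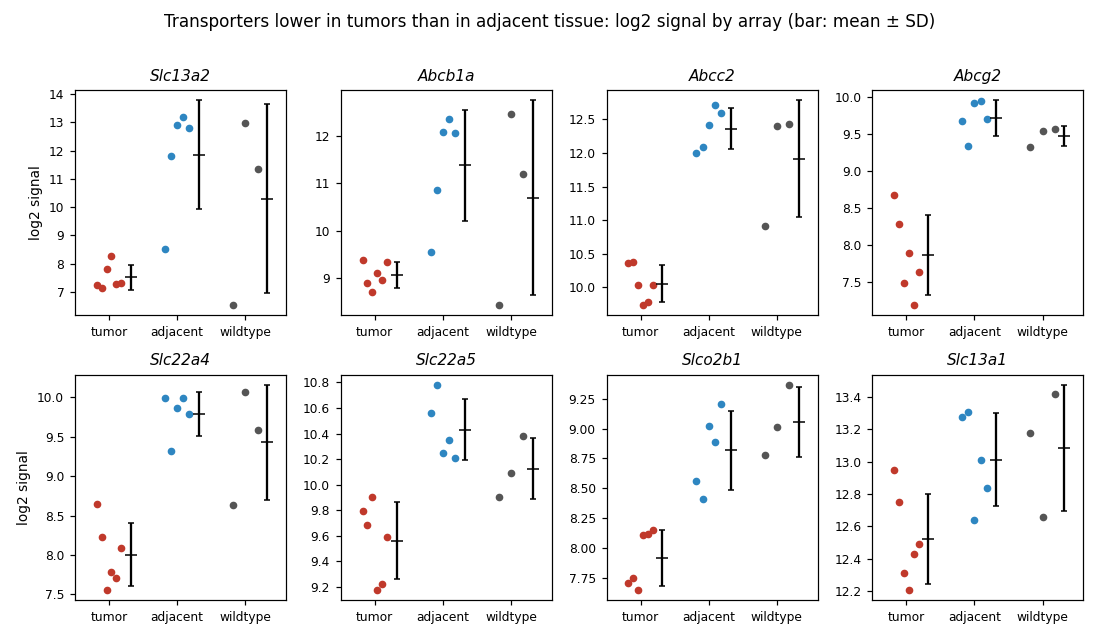
Log2 signal by array of 8 transporters that were lower in tumors than in adjacent tissue, with a bar for the mean ± SD of each group; each panel has its own axis, which does not start at 0. Every gene shown except Slc13a1 separates tumors from all adjacent arrays, although for Slc13a2 and Abcb1a adjacent array 1 lies close above the highest tumor. Slc13a2 and Abcb1a also scatter widely among the wildtype arrays, where 1 array lies below every tumor.

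The calls for Slc13a2 and Abcb1a depended on which arrays entered. In the fit that kept only those 4 adjacent and wildtype arrays with high acinar markers, Slc13a2 differed by -2.67 ± 0.99 (adjusted p = 0.119) and Abcb1a by -1.20 ± 0.54 (adjusted p = 0.202). With those 4 arrays left out instead, Slc13a2 differed by -5.42 ± 0.21 and Abcb1a by -3.07 ± 0.14. Abcc2, at -1.95 and -2.58 in these fits, and Abcg2, at -1.64 and -2.10, passed the threshold in both. These fits were chosen after the marker values were seen.

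The start regions of Abcb1a and Abcc2 are printed as an example of an efflux pump without and with the exact word AGGTCA. They are RefSeq GRCm38.p6 sequence, Abcb1a at chr5:8566841-8567090 and Abcc2 at chr19:43782058-43782307, both on the plus strand and 5′ to 3′, with AGGTCA in capitals.
Abcb1a: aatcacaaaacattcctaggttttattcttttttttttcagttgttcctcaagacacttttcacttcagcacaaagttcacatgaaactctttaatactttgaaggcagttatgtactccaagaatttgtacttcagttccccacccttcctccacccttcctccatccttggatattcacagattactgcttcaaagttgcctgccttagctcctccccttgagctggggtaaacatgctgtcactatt
Abcc2: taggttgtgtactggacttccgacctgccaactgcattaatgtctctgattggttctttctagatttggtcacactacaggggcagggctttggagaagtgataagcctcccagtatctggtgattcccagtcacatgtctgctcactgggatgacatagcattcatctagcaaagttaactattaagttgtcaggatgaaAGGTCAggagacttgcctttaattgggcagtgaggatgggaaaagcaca
AGGTCA, a hexamer bound by many nuclear receptors, was searched on both strands of the 250 bases before each RefSeq start. Only this exact word was searched, so a window without it may hold another form of a nuclear receptor site. It occurred in 4607 of 32851 such windows. A window was available for 67 of the 83 members, for 11 of the 15 that fell and for 7 of the 9 that rose. The word was found for 10 of the 67, for 3 of the 11 that fell (Abcc2, Abcg2 and Slco1b2) and for 0 of the 7 that rose. Windows were counted singly but members by gene, any window of a gene counting. The shares are thus not directly comparable, here or for the words below. In Abcc2 the word AGGTCA began 49 bases before the start. The HNF1 motif GTTAAT was in 6.43% of windows, and among the members that fell in that of Slco1b2. The GATA motif AGATAA was in 9.99% of windows, in 0 of 11 members that fell and in 1 that rose, Slc22a17. The Cdx2 motif TTTATGG was in 2.43% of windows, and among the members that fell in that of Slco2b1. The HNF4 motif CAAAGTCCA was in 0.384% of windows and in no member's. All were searched on both strands, and none of these words contains another. These matches describe letters only.

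Of the 5 organic cation and carnitine carriers, 3 fell, none rose and the median difference was -0.36. Slc22a4, a carrier of the antioxidant ergothioneine, read 7.56, 7.94 and 8.65 in tumors against 9.993, 9.32, 9.87, 9.997 and 9.79 in adjacent tissue. All tumors were below all adjacent arrays, and the difference was -1.83 ± 0.20 (3.56-fold lower; adjusted p = 8.61e-06).

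Slc22a5, the high-affinity carnitine carrier, read 9.18, 9.63 and 9.90 in tumors against 10.56, 10.78, 10.25, 10.35 and 10.21 in adjacent tissue. The groups again did not overlap, with a difference of -0.88 ± 0.12 (adjusted p = 5.53e-05). Slc22a21, a further carnitine carrier of the mouse, read 7.54, 7.77 and 8.16 in tumors against 8.38, 7.73, 8.34, 8.36 and 7.97 in adjacent tissue. It overlapped between the groups, tumor being higher in 1 of 5 mice, and differed by -0.36 ± 0.13 (adjusted p = 0.0395), a call lost in 14 of 28 alternative fits. These 3 genes lie side by side on chromosome 11 with no other protein-coding gene between them, and Slc22a21 and Slc22a5 are similar enough that shared probe signal was not tested.

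Among the 14 Slco carriers 3 fell, none rose and the median difference was 0.029. Slco2b1, an uptake carrier for sulfated steroids and many oral drugs, read 7.65, 7.93 and 8.15 in tumors against 8.56, 8.41, 9.02, 8.89 and 9.21 in adjacent tissue. The groups did not overlap, with a difference of -0.89 ± 0.12 (adjusted p = 6.56e-05). In the fit restricted to adjacent and wildtype arrays with high acinar markers it was -0.62 ± 0.18 (adjusted p = 0.0519).

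Slco3a1, a broadly expressed carrier of prostaglandins and thyroid hormone, read 8.56, 8.85 and 9.07 in tumors against 8.84, 9.47, 9.52, 9.502 and 9.57 in adjacent tissue. Adjacent array 1 lay among the tumors and the other 4 above them, and the difference was -0.56 ± 0.12 (adjusted p = 0.00162). Slco1b2, the liver uptake carrier for bile salts and statins, gave the smallest call at -0.18 ± 0.06 (adjusted p = 0.0424), at a dim signal of 4.90 to 5.12 in tumors and 5.03 to 5.34 in adjacent tissue, and it missed the threshold in 20 of 27 alternative fits. Slco1a5, a bile salt carrier of the mouse gut, differed by 0.00 ± 0.08 (adjusted p = 0.991), and Slco4a1, a thyroid hormone carrier, by 0.24 ± 0.10 (adjusted p = 0.0795).

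Of the 13 organic anion carriers of the Slc22 family only Slc22a13b passed the test, at -0.48 ± 0.16 (adjusted p = 0.0283), and it was lost in 9 of 27 alternative fits. The 5 remaining Slc22 genes gave 3 higher calls, no lower one and a median of 0.38. Slc22a15 read 7.96, 8.25 and 8.69 in tumors against 7.82, 7.31, 7.39, 7.39 and 7.29 in adjacent tissue. The groups did not overlap, although adjacent array 1 came close to the lowest tumor, and the difference was 0.81 ± 0.14 (adjusted p = 0.000533). Slc22a23 differed by 0.56 ± 0.12 (adjusted p = 0.00168) without overlap, and Slc22a17, a receptor for the iron-binding protein lipocalin-2, by 0.38 ± 0.12 (adjusted p = 0.0209), a call lost in 9 of 28 alternative fits.

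The 7 other Abcc exporters gave 4 higher calls, no lower one and a median of 0.46. Abcc1 (Mrp1), which exports glutathione conjugates and leukotriene C4, read 8.99, 9.32 and 9.79 in tumors against 7.80, 8.45, 8.25, 7.99 and 7.98 in adjacent tissue. Each tumor exceeded each adjacent array, with a difference of 1.25 ± 0.16 (2.37-fold higher; adjusted p = 3.35e-05).

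Abcc4 (Mrp4), which exports cyclic nucleotides and prostaglandins, read 8.06, 8.59 and 9.09 in tumors against 7.43, 7.38, 7.69, 7.62 and 7.71 in adjacent tissue. It did not overlap either and differed by 0.99 ± 0.15 (1.98-fold higher; adjusted p = 0.000138). Both genes kept their calls in each of the 28 alternative fits.

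Abcc5 (Mrp5), an exporter of cyclic nucleotides, read 7.70, 7.90 and 8.56 in tumors against 7.45, 7.51, 7.57, 7.57 and 7.55 in adjacent tissue. Without overlap between the groups, the difference was 0.46 ± 0.11 (adjusted p = 0.00393), and tumor 3 was far above the other tumors. The Abcc5 call was lost in 3 of 28 alternative fits, with differences from 0.29 to 0.67. Abcc3 (Mrp3), which exports bile salts and glucuronides on the basolateral side, read 11.32, 11.48 and 11.80 in tumors against 11.32, 11.06, 10.92, 10.93 and 11.08 in adjacent tissue. Adjacent array 1 reached the lowest tumors, and the difference was 0.48 ± 0.14 (adjusted p = 0.0194). The Abcc3 call was lost in 6 of 28 alternative fits, at 0.46 ± 0.17 without the mouse block (adjusted p = 0.0569) and at 0.29 ± 0.17 within mice of ID letter F (adjusted p = 0.351).

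**Figure D4:**
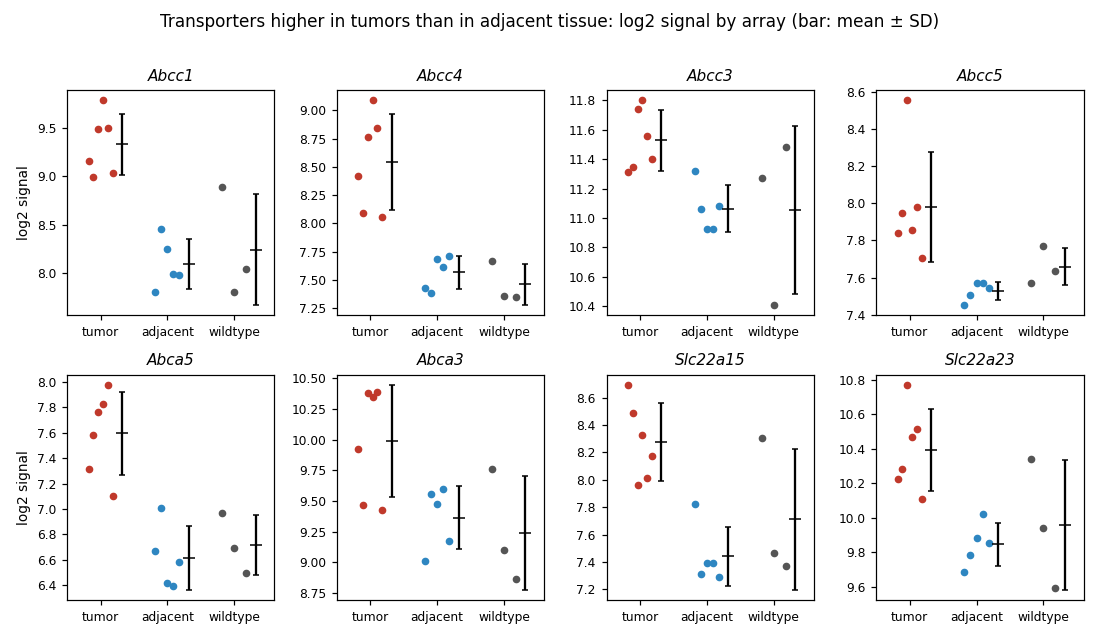
Log2 signal by array of 8 transporters that were higher in tumors than in adjacent tissue, with a bar for the mean ± SD of each group; each panel has its own axis, which does not start at 0. Abcc1, Abcc4, Abcc5, Abca5, Slc22a15 and Slc22a23 separate tumors from all adjacent arrays, and wildtype array 1, the leftmost wildtype point, reaches 8.88 for Abcc1 and 8.31 for Slc22a15.

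Of the 18 genes grouped here as lipid ABC transporters 2 rose and 2 fell, with a median of 0.0089. Abca5, a transporter of lysosomes and endosomes, read 7.10, 7.67 and 7.98 in tumors against 6.67, 7.01, 6.42, 6.39 and 6.58 in adjacent tissue, a difference of 1.00 ± 0.14 without overlap (adjusted p = 8.53e-05). Abca3, which loads phospholipid into lamellar bodies of the lung, read 9.43, 10.14 and 10.39 in tumors against 9.01, 9.56, 9.48, 9.60 and 9.18 in adjacent tissue. The groups overlapped, and the difference was 0.63 ± 0.17 (adjusted p = 0.00992).

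Abcg3, a rodent gene related to Abcg2 but counted in that lipid ABC group, fell without overlap by 0.68 on the log2 scale (SE 0.08, adjusted p = 2.2e-05). It read 6.06, 6.27 and 6.48 in tumors and 6.93, 6.72, 6.99, 7.05 and 7.19 in adjacent tissue. Abca8a differed by -0.64 ± 0.14 (adjusted p = 0.00319) with overlapping groups. Of the 7 ABC transporters of organelles only Abcb10, a mitochondrial transporter needed in heme-making cells, passed the test, at -0.40 ± 0.09 (adjusted p = 0.00332). None of the 3 other plasma membrane Abcb genes and neither potassium channel subunit, Abcc8 or Abcc9, did.

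Groups that did not overlap were found for 6 higher members (10.3% of all genes) and 9 lower ones (6.84% of all genes). The calls for Abca5, Abcc1, Abcc2, Abcc4, Abcg2, Slc22a4 and Slc22a5 held in every alternative fit that was run.

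The second comparison set the same tumors against wildtype duodenum, so it shares the tumor arrays with the first. The efflux pumps Abcc2 and Abcg2, the carriers Slc22a4, Slc22a5 and Slco2b1, and Abcg3 were lower in tumors, and Abcc1, Abcc4 and Abca5 were higher. Of the 83 members 9 passed (10.8%, against 14.1% of all genes), 3 of them higher (9.65% of all genes) and 6 lower (4.48% of all genes). Calls of at least 2-fold numbered 2 higher (2.2% of all genes) and 4 lower (1.7% of all genes). The median difference was -0.054 over the members and -0.0023 over all genes. Groups did not overlap for 4 higher members (8.53% of all genes) and 6 lower ones (5.04% of all genes).

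Abcc2 read 10.91, 12.40 and 12.43 in wildtype tissue, array 1 being lowest but still above every tumor. The difference, tumor minus wildtype, was -1.86 ± 0.30 (adjusted p = 0.00164). Abcg2 read 9.32, 9.54 and 9.57 in wildtype tissue and differed by -1.62 ± 0.26 (adjusted p = 0.00164), with all wildtype arrays above all tumors. The calls for Abcc2 and Abcg2 were each lost in 1 of 27 alternative fits, the one within mice of ID letter F. Over the alternative fits Abcc2 ran from -2.56 to -0.65 and Abcg2 from -1.98 to -1.18.

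Slco2b1 read 8.78, 9.02 and 9.37 in wildtype tissue, above every tumor, and differed by -1.14 ± 0.17 (adjusted p = 0.0011), a call lost in 1 of 27 alternative fits. Slc22a4 read 8.64, 10.07 and 9.59 in wildtype tissue, where array 1 lay just below the highest tumor, and differed by -1.43 ± 0.28 (adjusted p = 0.00429). The Slc22a4 call was lost in 2 of 27 alternative fits, with differences from -2.07 to -0.49. Slc22a5 read 9.90, 10.09 and 10.38 and differed by -0.56 ± 0.17 (adjusted p = 0.0376), its lowest wildtype array being just above the highest tumor. That call was lost in 10 of 27 alternative fits, with differences from -0.91 to -0.11. Abcg3 differed by -0.48 ± 0.12 (adjusted p = 0.0145), a call lost in 4 of 26 alternative fits.

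Abcc1 read 8.88, 7.80 and 8.04 in wildtype tissue, array 1 lying close below the lowest tumor, and differed by 1.09 ± 0.22 (adjusted p = 0.00568). The Abcc1 call was lost in 3 of 27 alternative fits, with differences from 0.33 to 1.53. Abcc4 read 7.67, 7.36 and 7.35 and differed by 1.09 ± 0.21 (adjusted p = 0.00405), with all tumors above all wildtype arrays. The Abcc4 call was lost in 2 of 27 alternative fits. Abca5 read 6.97, 6.70 and 6.50 and differed by 0.87 ± 0.20 (adjusted p = 0.0106), also without overlap, and lost its call in 5 of 26 alternative fits.

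Slc13a2 read 6.54, 12.97 and 11.37 in wildtype tissue. Array 1 was below every tumor and the other 2 were far above them, and the difference of -2.78 ± 1.17 missed the threshold (adjusted p = 0.139). Abcb1a read 8.44, 12.46 and 11.19 and differed by -1.63 ± 0.71 (adjusted p = 0.159). Without wildtype array 1, the array with gastric pit markers at 13.4, Slc13a2 differed by -4.66 ± 0.93 (adjusted p = 0.00307) and Abcb1a by -2.76 ± 0.58 (adjusted p = 0.00436). Without that array 7 members were higher and 9 lower (19.3%, against 22.7% of all genes in that fit). Leaving out wildtype array 2 instead left 1 higher call, with 7.23% of members and 4.71% of all genes called in either direction. In that fit Abcc1 had an adjusted p of 0.0551.

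The third comparison, adjacent against wildtype duodenum, asked whether normal duodenum of Lrig1-/- mice differed from that of wildtype mice, and it shares its arrays with both others. By limma 0 of 83 members passed, as did 0 of 19938 genes (0% of all genes). Even Lrig1, the gene carrying the insertion, missed the threshold, at -1.84 ± 0.25 without overlap (adjusted p = 0.0511). The lack of calls therefore does not show that the tissues were alike. At an unadjusted p below 0.05 there were 2 members (2.41%) and 559 genes (2.8%), and with array weights 7 members passed (8.43%, against 8.48% of all genes in that fit). Groups did not overlap for 0 higher members (0.948% of all genes) and 3 lower ones (1.17% of all genes), which were Slco6c1, Slc22a26 and Abcc5, named after their values were seen. Abcc5 was barely apart, with 7.569 as the highest adjacent and 7.570 as the lowest wildtype array, as was Slc22a26, with 6.012 and 6.016. Slco6c1 and Slc22a26 were also dim, with mean signals below the median of all genes. The smallest unadjusted p was that of Slco6c1, at -0.29 (adjusted p = 0.998). For Slc13a2 the difference was 1.55 ± 1.20 (adjusted p = 0.998), and without wildtype array 1 it turned to -0.33 ± 0.95.

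Proteins that hold, regulate or work beside these transporters were read from a list of 25 genes, 24 of them in the table. Between tumors and adjacent tissue 2 were higher (19.1% of all genes) and 14 lower (12.6% of all genes), with a median of -0.77. Between tumors and wildtype tissue 0 were higher (9.65% of all genes) and 9 lower (4.48% of all genes), with a median of -0.51. The scaffold Pdzk1, which anchors brush-border carriers including the carnitine carrier, fell by 3.38 on the log2 scale (SE 0.33; adjusted p = 4.58e-06), and the related scaffold Slc9a3r1 by 1.12 (SE 0.13; adjusted p = 1.97e-05). Slc9a3r2, of the same scaffold family, was higher at 0.72 ± 0.24 (adjusted p = 0.0298).

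Among the transporters of that list, the peptide carrier Slc15a1 differed by -2.43 ± 0.18 (adjusted p = 7.19e-07). The basolateral bile acid exporter subunits Slc51a and Slc51b differed by -2.18 ± 0.22 and -2.95 ± 0.26, and the cation exporter Slc47a1 (Mate1) by -2.92 ± 0.37, all past the threshold. The sterol pump partners Abcg5 and Abcg8, left out of the members by the rule, differed by -1.14 ± 0.22 and -1.55 ± 0.25 and passed too. Slc29a1 was higher at 0.23 ± 0.08 (adjusted p = 0.0477). Slc10a2, Slc47a2, Abca1 and Slco2a1 did not pass, at -0.09 ± 0.13, 0.01 ± 0.11, -1.03 ± 0.44 and -0.55 ± 0.27.

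Of the nuclear receptors, the drug sensors Nr1i3 (CAR) and Nr1i2 (PXR) fell by 1.97 and 0.95 on the log2 scale (SE 0.26 and 0.16; adjusted p = 5.09e-05 and 0.00033). The fatty acid receptor Ppara differed by -1.08 ± 0.24, the vitamin D receptor Vdr by -0.57 ± 0.13 and their partner Rxra by -0.59 ± 0.10, each past the threshold, as did the intestinal factor Cdx2 at -0.49 ± 0.14. The enterocyte and liver factor Hnf4a differed by -0.01 ± 0.07, the oxidative stress factor Nfe2l2 by 0.00 ± 0.07, the bile acid receptor Nr1h4 by -0.02 ± 0.18 and the aryl hydrocarbon receptor Ahr by 0.20 ± 0.11, and none of these passed.

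**Figure D5:**
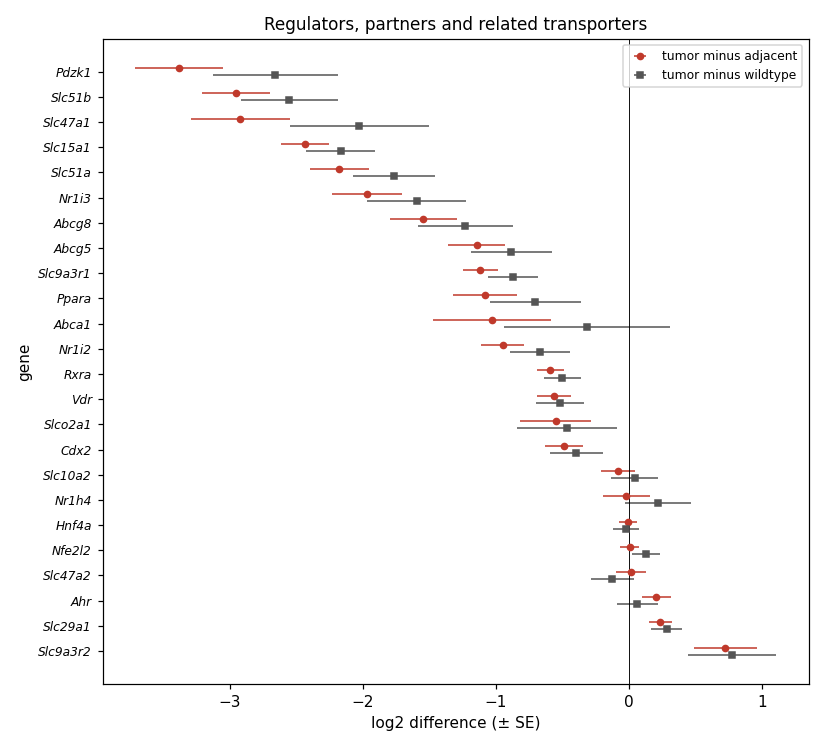
Log2 difference of 24 regulators, scaffolds and related transporters, tumor minus adjacent (red circles) and tumor minus wildtype (grey squares), with bars of 1 SE; both use the same tumors. Pdzk1, Slc51b and Slc47a1 lie furthest left, and Hnf4a, Nfe2l2 and Nr1h4 lie near 0.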

How the data were processed

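The authors deposited 1 table of log2 signal for 35556 transcript clusters on 14 arrays. The unit was read from its values, 2.87 to 14.8. Affymetrix Expression Console 1.1 and build mm9 are named, per the submitters' processing notes, but no source used here states the background correction or normalization. Medians of the arrays ran from 7.11 to 7.29 and no rescaling was applied. No detection calls came with the values, and the number of arrays limits the precision. Columns were matched to groups by the labels.

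Symbols came from the platform annotation, updated by gene identifier, with 21789 clusters having 1 symbol, 1621 several and 12146 none listed. RefSeq tables of GRCm38.p6 gave names, neighbours and promoter sequence. All 19938 genes were fitted with limma 3.58.1 in R 4.3.3: group means over 14 arrays, mouse as a random block (correlation 0.334), eBayes, two-sided tests, Benjamini-Hochberg adjustment and a threshold of 0.05. Tumor and adjacent arrays were paired by the mouse ID in the labels, and deviations of paired arrays correlated at 0.225 on average (-0.0539 between mice; exact one-sided permutation p = 0.00833 over 120 pairings). The mice are separate animals. On simulated data for 19938 genes, 200 of them changed by 1 log2 unit, 95.5% were recovered between tumor and adjacent groups, 79% between tumor and wildtype and 82.5% between adjacent and wildtype. Unchanged genes called numbered 14, 8 and 10. The simulated noise was normal, with no outlying array, and the 200 planted changes ease the adjusted threshold. Recovery between adjacent and wildtype tissue, where 0 genes passed in the data, may therefore be lower than 82.5%.

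Members named in the text were Slc13a2, those past the threshold, and further transporters well known from the gut wall; the others are given by role, range and count. The members and lists were chosen with earlier results of these data known. Alternatives covered the block, array weights, scaling, dim genes, row choice, the letter of the mouse ID and leaving out arrays.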

Additional observations from a re-analysis of the deposited data

Results flagged for a closer look

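Named members were examined in 54 groups of tumor or adjacent arrays for an array far from the others by Dixon's test, which flags about 5% of groups by chance, and 4 groups held one. Abcc5 read 8.56 in tumor 3, with the next tumor at 7.98. Slc22a15 read 7.82 in adjacent array 1, with the next at 7.39. Slco3a1 read 8.84 in the same adjacent array, with the next at 9.47. Slco1a5 read 4.90 in adjacent array 2, with the next at 4.80, at a dim signal throughout. Adjacent array 1 had acinar markers at 13.5, and its part in these values was not tested.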

How the results depend on the processing

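Across 28 alternative fits, the 33 called differences of named members kept their direction and gave 908 values, of which 797 passed the threshold and 111 missed it. Leaving out 1 array gave 8 to 11 higher and 12 to 16 lower members between tumors and adjacent tissue. Of all genes, 26.2% to 32.5% were called in those fits. Between tumors and wildtype tissue it gave 1 to 7 and 5 to 9, with 4.71% to 22.7% of all genes called. Between adjacent and wildtype tissue it gave 0 to 0 members. Without the replicate block for mouse, 7 were higher and 12 lower in tumors than in adjacent tissue (22.9%, against 24.1% of all genes in that fit). With a fixed replicate block on 5 pairs the counts were 11 and 13 (28.9%, against 28% of all genes). With array weights 15 members were higher in tumors than in adjacent tissue (34.9% called in either direction, against 40% of all genes). Against wildtype tissue 9 were higher and 24 lower (39.8% called, against 47.8% of all genes). Between adjacent and wildtype tissue 7 differed (8.43%, against 8.48% of all genes). Without the 4 adjacent and wildtype arrays lacking acinar transcripts, 4 were higher and 6 lower than in adjacent tissue (12%, against 10.9% of all genes). Against wildtype tissue the counts were 0 and 3 (3.61%, against 2.53% of all genes). Within mice of ID letter F the counts against adjacent tissue were 3 and 5 (9.64%, against 8.62% of all genes). Within letter B the counts against wildtype tissue were 6 and 10 (19.3%, against 18.6% of all genes). No source used here explains that letter. These array subsets were chosen after seeing the data. Adjacent arrays 1 and 2, with high acinar markers, were also the only adjacent arrays of letter F, and adjacent arrays 3 to 5 were all of letter B. The acinar and letter subsets thus keep the same adjacent arrays, and among these acinar markers and ID letter cannot be told apart.

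Among differences that were not called, Slc13a2 turned to 0.86 and Abcb1a to 0.56 between tumors and wildtype tissue within letter F, where wildtype tissue has 1 array. That array is wildtype array 1, the one with high gastric pit markers. It read 6.54 for Slc13a2 and 8.44 for Abcb1a, below every tumor. Slc13a2 between adjacent and wildtype tissue turned to -0.27 with array weights, to -0.033 without the arrays with acinar transcripts and to -0.33 without wildtype array 1, the lowest of its values with 1 array left out, of which the highest was 2.88 without wildtype array 2. Slco1a5 between tumors and adjacent tissue turned to -0.0023 without the block, -0.0035 with array weights, -0.020 with median centring, -0.034 without the arrays lacking acinar transcripts, -0.057 within letter F, and in 4 fits with 1 array left out, to between -0.075 and -0.015; over all such fits it ran from -0.075 to 0.042. The cause of these changes was not tested.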

Other observations

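Members that lie side by side on a chromosome did not always differ alike between tumors and adjacent tissue. In the Abca cluster of chromosome 11, Abca5 was higher at 1.00 ± 0.14 and Abca8a lower at -0.64 ± 0.14, while Abca6, Abca9 and Abca8b, which lie with them without another protein-coding gene between, missed the threshold at -0.08 ± 0.08, -0.13 ± 0.08 and 0.13 ± 0.08. In all, 21 neighbouring pairs of members had no other protein-coding gene between them. No test of position was made.

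The sulfate carrier Slc13a1 was highest where acinar markers were above 12, at 13.27 and 13.31 on adjacent arrays 1 and 2, against 12.64, 13.01 and 12.83 on adjacent arrays 3 to 5. On the wildtype arrays it read 13.18, 12.66 and 13.42, array 2 being the one with low acinar markers. This is a description of arrays set apart by their marker values, with no test.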
